A study of Mus musculus with 6 samples.

Results

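Glycolysis turns glucose into pyruvate in the cytosol, and pyruvate then either becomes lactate, which leaves the cell, or enters mitochondria and is oxidised by the pyruvate dehydrogenase complex. Endothelial cells are known to draw much of their ATP from glycolysis, and several genes of the pathway are textbook targets of the hypoxia-inducible factor HIF-1. The transcripts described here are 38 genes chosen by symbol to cover the route from glucose uptake to lactate export and pyruvate oxidation, with 4 genes of the glycogen and bisphosphoglycerate branches. Of these, 37 had a row among the 15528 gene symbols of the count table and 35 had enough counts to be tested. Ldhb was not analysed here, and Slc2a3 and Slc16a3 were too low to be tested.

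The cells were mouse cells in culture, labelled as lymphatic endothelial cells. There were 3 control libraries and 3 libraries of cells treated with red blood cells, called RBC libraries below, all with a time of 24 h in the labels. The labels give no strain, genotype, age or passage for either group, no source or dose of the red cells, and no statement that the replicates came from separate cultures. The p-values therefore rest on the variation seen among these libraries, and that variation may be technical. In RNA of a whole culture, fewer cells of a type and less RNA per cell cannot be told apart.

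Total counts per library lay between 17263359 and 18381419. Several defining endothelial transcripts were near 0: over the 3 control libraries Cdh5 had 7 counts, Pdpn 6 and Kdr 0. Others were present. Of 10 lymphatic endothelial markers 7 had a row. These summed to between 400 and 503 CPM (a count relative to all counts of its library) in the controls and to between 562 and 594 CPM in the RBC libraries. Most of it came from Nrp2, Nr2f2 and Stab1, which averaged 272, 161 and 30.9 CPM in the controls. Of 4 tested, Stab1 was called higher with all 6 libraries (log2 fold change 1.04 ± 0.12 SE), and without control replicate 2 Nrp2 was also higher and Nr2f2 lower. Of 10 pan-endothelial markers 7 had a row. These summed to between 107 and 119 CPM in the controls and between 112 and 114 CPM in the RBC libraries, with Eng and Pecam1 as the 2 tested and neither called. Control replicate 2 stood apart from every other library. Compared over genes, the mean chi-square was 28.25 against control replicate 1 and 26.83 against control replicate 3, whereas those other controls gave 1.99 with each other and pairs of RBC libraries 1.73 to 2.13. Its deviation from the mean of all libraries fell with gene length across the tested genes (Spearman's rho -0.64, against 0.22 to 0.36 in the 5 other libraries; a description across genes, which are not independent replicates). It also had the highest CPM of the 6 libraries in 22 of the 35 tested members, as it did in 35.2% of all tested genes. Fold changes are therefore given with and without it for the called members and for most of the others.

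Most transcripts from glucose uptake to lactate were lower in the RBC libraries, as were those of the kinases Pdk1 and Pdk3. The 6 genes that bring pyruvate into mitochondria and oxidise it also had negative log2 fold changes. These lay between -0.07 and -0.02 without control replicate 2 and between -0.17 and -0.04 with all 6 libraries. None of these 6 was called, but so small a set would hold few calls at the share of all genes. The differences were modest, and whether they passed turned on control replicate 2 and on the method of testing. With all 6 libraries no member passed the threshold (edgeR's quasi-likelihood test, Benjamini-Hochberg adjusted p under 0.05 over 11208 genes), against 1.46% of all tested genes called (1.16% higher and 0.303% lower). At an unadjusted p under 0.05 there were 16 members, against 9.99% of all tested genes. DESeq2 called 5 of these 16 lower on the same libraries: Ldha, Pdk1, Tpi1, Pgam1 and Pfkl. Over all genes DESeq2 called 60 lower and 179 higher, against 34 and 130 in edgeR. In 19 of the 35 tested members the 3 RBC libraries all lay below the 3 controls, against 9.19% of all tested genes, and in 1 member, Hk2, they all lay above, against 10.4%. Without control replicate 2, 15 members fell, against 3.77% of all genes tested in that fit, and Hk2 rose, against 4.19% (7.96% called in all). A voom fit with library quality weights gave control replicate 2 a weight of 0.12, against 1.20 to 1.86 for the others, and so nearly left it out. That fit called 12 members lower and 0 higher (background 5.81% called, 3.23% higher and 2.58% lower), whereas voom without weights called 0 members. A fit with a gene length offset called 9 lower and 0 higher (background 3.02% called, 1.94% higher and 1.09% lower). All 15 also had RBC libraries below each of the 3 controls. In 13 of the 15 control replicate 2 was the highest library, and the log2 fold changes of the 15 lay between -0.26 and -0.09 without it and between -0.32 and -0.10 with it. The median log2 fold change of the 35 members was -0.13 with all libraries and -0.12 without control replicate 2, beside medians of -0.00 over all tested genes in both fits. The log2 fold change was negative for 27 members with all libraries and for 29 without control replicate 2, against 51.0% and 50.2% of all tested genes.

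**Figure D1:**
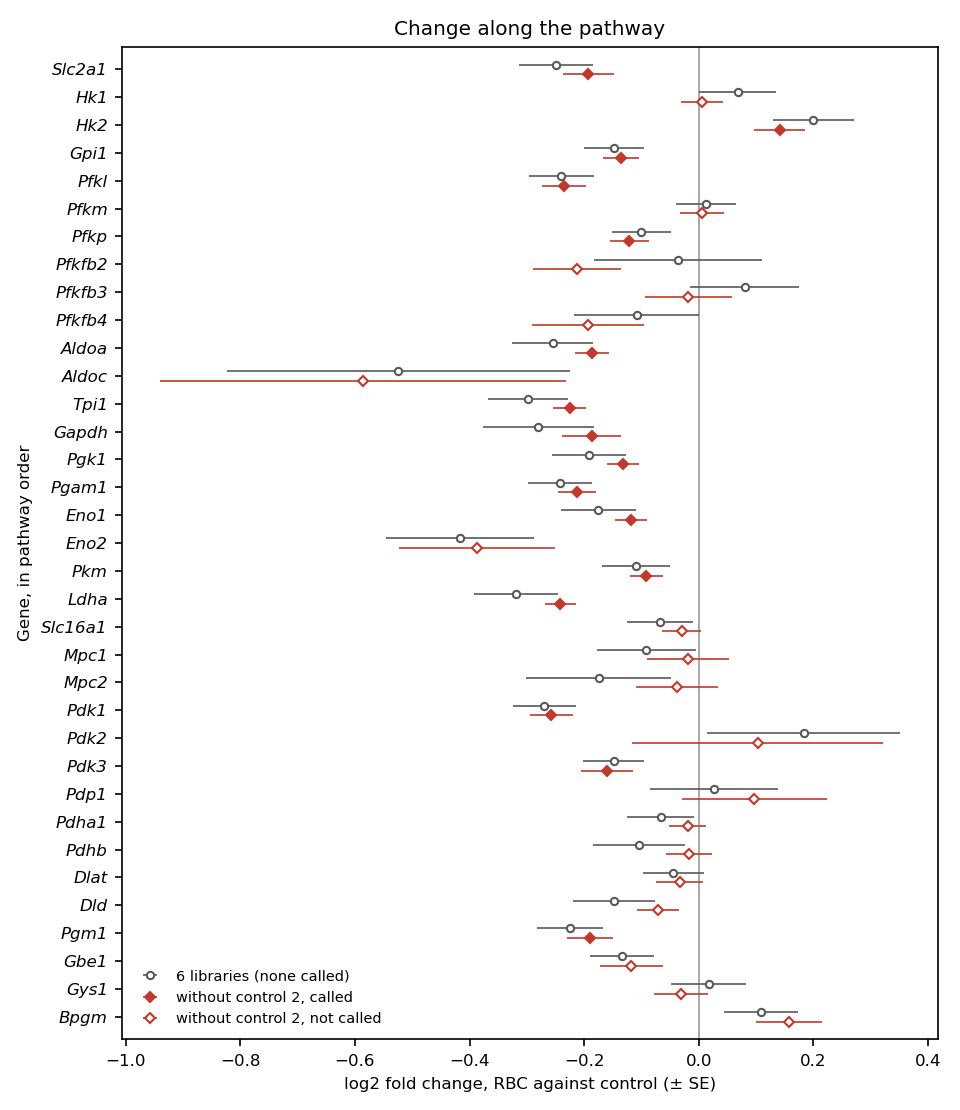
The log2 fold change of each of the 35 tested genes, RBC against control, runs along the horizontal axis with its standard error, and the genes stand in pathway order from glucose uptake at the top. Circles are the fit with 6 libraries, in which none was called, and diamonds the fit without control replicate 2, filled for the 15 called lower and for Hk2, called higher.

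The start regions of 4 genes are shown because they are the members that fell with the 3 smallest p-values without control replicate 2 and the 1 member that rose. They are the 250 bases before the RefSeq start on GRCm38.p6, 5′ to 3′ on the strand of the gene: chr7:46845554-46845803 on the plus strand for Ldha (the first of 2 starts), chr6:124814159-124814408 on the minus strand for Tpi1, chr2:71872974-71873223 on the plus strand for Pdk1 (the first of 2 starts) and chr6:82774455-82774704 on the minus strand for Hk2. Capitals mark ACGTG and GCGTG, the core letters of hypoxia response elements, on either strand. A CACGTG holds ACGTG on both strands and is also the core of an E-box.
Ldha: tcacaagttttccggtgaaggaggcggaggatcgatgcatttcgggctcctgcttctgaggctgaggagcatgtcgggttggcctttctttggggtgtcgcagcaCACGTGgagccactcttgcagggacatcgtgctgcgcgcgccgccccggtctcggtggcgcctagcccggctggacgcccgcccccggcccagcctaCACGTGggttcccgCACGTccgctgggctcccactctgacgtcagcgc
Tpi1: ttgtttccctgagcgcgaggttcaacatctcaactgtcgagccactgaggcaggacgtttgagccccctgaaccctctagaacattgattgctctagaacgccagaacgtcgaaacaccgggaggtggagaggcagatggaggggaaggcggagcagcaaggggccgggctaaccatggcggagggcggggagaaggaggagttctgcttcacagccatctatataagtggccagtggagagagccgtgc
Pdk1: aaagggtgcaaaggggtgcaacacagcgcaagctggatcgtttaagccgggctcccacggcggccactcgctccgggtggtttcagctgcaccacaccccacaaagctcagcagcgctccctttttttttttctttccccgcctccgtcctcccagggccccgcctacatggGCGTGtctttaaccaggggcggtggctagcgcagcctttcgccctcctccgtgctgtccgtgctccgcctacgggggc
Hk2: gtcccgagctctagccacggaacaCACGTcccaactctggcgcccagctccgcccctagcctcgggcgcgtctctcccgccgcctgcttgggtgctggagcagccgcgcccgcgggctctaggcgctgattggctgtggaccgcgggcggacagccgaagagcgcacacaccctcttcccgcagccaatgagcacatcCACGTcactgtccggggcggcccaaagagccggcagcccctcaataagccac
Ldha held 5 matches to ACGTG, of which 2 pairs are the strands of a CACGTG, and Hk2 held 2. Pdk1 held none of ACGTG and 1 of GCGTG, and the Tpi1 stretch held neither. The 250 bases before the second start held 0 matches to ACGTG and 1 to GCGTG for Ldha, and neither for Pdk1. Over windows of 300 bases, which add the first 50 bases after the start, ACGTG on either strand was in 23 of the 53 RefSeq windows found for 36 members (43.4%), against 25.7% of the windows of all tested genes and 19.6% of all windows. GCGTG was in 50.9% of the members' windows and 51.2% of those of all tested genes. Median GC content was 61.0% in the windows of the members and in those of all tested genes, and windows of 1 gene can overlap. The genes that fell without control replicate 2 had ACGTG in 10 of 22 windows (45.5%) and GCGTG in 12 (54.5%), with a higher median GC content of 64.8%. These are matches of letters only.

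Glucose enters through facilitative transporters and is trapped by hexokinase. Slc2a1, which encodes the transporter GLUT1, had 83.9, 92.8 and 81.8 CPM in control replicates 1 to 3 and 72.1, 72.2 and 73.02 CPM in RBC replicates 1 to 3. The RBC libraries lay close together and below all controls, and Slc2a1 fell without control replicate 2 (log2 fold change -0.19 ± 0.04 SE, adjusted p = 0.0017; -0.25 ± 0.06 and adjusted p = 0.14 with all 6). GLUT3 was all but silent, with 2 counts of Slc2a3 over the controls and 0 over the RBC libraries, too few to be tested.

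Of the hexokinase genes 1 was called, in the other direction. Hk2, the inducible form, had 81.8, 74.9 and 87.8 CPM in the controls and 94.9, 95.6 and 90.1 CPM in the RBC libraries, which did not overlap although the gap between control replicate 3 and RBC replicate 3 was small. It rose without control replicate 2 by 0.14 ± 0.04 on the log2 scale (adjusted p = 0.033; 0.20 ± 0.07 and 0.36 with all libraries). This call was kept where RBC replicate 3 was also left out and lost without RBC replicate 1 or RBC replicate 2, in fits that reuse the same libraries. Leaving out a further control leaves 1 control, so only log2 fold changes are given for those fits. Over all 5 fits with 1 more library left out, the log2 fold change of Hk2 lay between 0.09 and 0.20. Hk1, the constitutive form, had 165, 147 and 169 CPM in the controls and 169, 161 and 174 in the RBC libraries, with overlapping groups (log2 fold change 0.07 ± 0.07 with all 6 and 0.01 ± 0.04 without control replicate 2). On the FPKM scale, which allows genes to be compared because it divides by length, Hk1 was the higher of the pair. In the controls it had 29.7 ± 2.22 FPKM (mean ± SD over libraries, as for all levels and shares below) against 13.6 ± 1.07 for Hk2. Hk2 made up 30.8%, 31.5% and 31.8% of the hexokinase FPKM in control replicates 1 to 3 and 33.6%, 34.8% and 31.8% in RBC replicates 1 to 3, with overlapping libraries (exact permutation test, two-sided, p = 0.20; adjusted p = 0.40 over 18 isozyme shares).

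Next come isomerisation and the committed step. Gpi1, glucose phosphate isomerase, had 587, 597 and 575 CPM in the controls and 546, 518 and 523 CPM in the RBC libraries, and it fell without control replicate 2 (-0.14 ± 0.03, adjusted p = 0.0015; -0.15 ± 0.05 and 0.37 with all 6). Phosphofructokinase, which commits sugar to glycolysis, is built from the liver, muscle and platelet type subunits Pfkl, Pfkm and Pfkp. Here the 3 subunit genes had like levels, with 36.98 ± 0.39, 38.1 ± 0.51 and 46.1 ± 1.10 FPKM in the controls. Pfkl had 151, 152 and 149 CPM in the controls and 135, 124 and 124 CPM in the RBC libraries, and it fell without control replicate 2 (-0.23 ± 0.04, adjusted p = 6.8e-06; -0.24 ± 0.06 and 0.10 with all 6). Pfkp, with 209, 201 and 209.6 against 188, 196 and 193 CPM, fell by less (-0.12 ± 0.03, adjusted p = 0.016, and -0.10 ± 0.05 and 0.56 with all 6). Its call was lost where RBC replicate 1 or RBC replicate 3 was also left out. Pfkm did not pass: its libraries overlapped, with a log2 fold change of 0.01 ± 0.05 with all 6 and 0.01 ± 0.04 without control replicate 2.

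The make-up of the subunit transcripts can be read within each library. Pfkl made up 30.5%, 31.1% and 29.9% of the summed FPKM of the 3 subunits in the controls and 28.8%, 27.2% and 27.3% in the RBC libraries. For Pfkm the shares were 31.1%, 31.5% and 31.7% against 34.4%, 33.5% and 34.2%. Both shares parted the groups with or without control replicate 2, and a share within a library does not depend on scaling between libraries. The shares of a step add up to the whole, so the Pfkl and Pfkm shares are not separate results. Each gave p = 0.10 in an exact permutation test, two-sided, the smallest that 3 against 3 libraries allow (adjusted p = 0.26 over 18 shares). The Pfkp share was 38.1% ± 0.56 and 38.2% ± 1.32. The Eno1 and Eno2 shares of enolase also parted the groups, though Eno2 held only 0.19% in the controls and 0.16% in the RBC libraries.

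**Figure D2:**
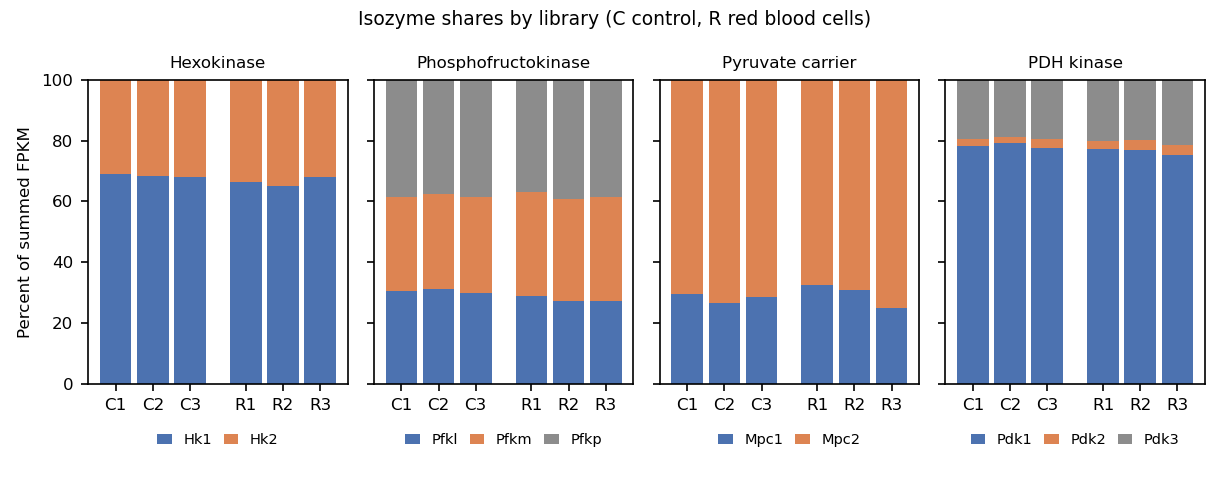
Bars show, for each of the 6 libraries, how the FPKM of a step divides among its isozyme or subunit genes, in percent of their sum. The Pfkl part is smaller and the Pfkm part larger in the RBC libraries (27.8% against 30.5% and 34.0% against 31.4% on average), while the pyruvate carrier shares overlap.

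Fructose 2,6-bisphosphate, made and removed by the PFKFB enzymes, is the strongest activator of phosphofructokinase. The members Pfkfb2, Pfkfb3 and Pfkfb4 were low, between 1.98 and 2.93 FPKM in the controls, and none passed in either fit, nor did Pfkfb1, a gene outside the 38 (1.92 FPKM in the controls, 0.19 ± 0.13 with all 6 and 0.27 ± 0.14 without control replicate 2). Pfkfb3, the highest of them and the form best known from endothelial cells, had 20.04, 16.2 and 19.95 CPM in the controls and 19.9, 19.04 and 20.3 CPM in the RBC libraries. Control replicate 2 was the lowest library for all 3 members. Pfkfb2 had a log2 fold change of -0.04 ± 0.15 with all libraries and -0.21 ± 0.08 (adjusted p = 0.076) without control replicate 2.

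Aldolase and triose phosphate isomerase split the hexose and interconvert the resulting trioses. Aldoa had 1384, 1621 and 1437 CPM in the controls and 1280.4, 1205 and 1234 CPM in the RBC libraries. It fell by 12.1% without control replicate 2 (-0.19 ± 0.03, adjusted p = 2.9e-06; -0.26 ± 0.07 and 0.20 with all 6). Its paralogue Aldoc had between 0.50 and 1.29 CPM and did not pass. Tpi1 had 969.7, 1134 and 992 CPM in the controls and 852, 828 and 836 CPM in the RBC libraries, with a gap between the groups that was wider than the spread of the RBC libraries or of control replicates 1 and 3. It fell by 14.5% (-0.23 ± 0.03, adjusted p = 2e-08; -0.30 ± 0.07 and 0.10 with all 6).

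The later steps of the pathway yield ATP and pyruvate. Pgk1, phosphoglycerate kinase, had 1758, 1982 and 1748 CPM in the controls and 1601, 1617 and 1582 CPM in the RBC libraries (-0.13 ± 0.03 without control replicate 2, adjusted p = 0.00054; -0.19 ± 0.07 and 0.34 with all 6). Pgam1, phosphoglycerate mutase, had 389.7, 405 and 370.1 against 336, 326 and 322 CPM (-0.21 ± 0.03, adjusted p = 1.3e-06; -0.24 ± 0.06 and 0.093 with all 6). Eno1, enolase and the member with the highest FPKM (1234 ± 86.7 in the controls), had 2336, 2669.7 and 2419.9 against 2221, 2166 and 2182 CPM (-0.12 ± 0.03, adjusted p = 0.0022; -0.18 ± 0.07 and 0.40 with all 6). These 3 fell without control replicate 2, and none of their RBC libraries reached the lowest control. Where 1 more library was left out as well, the log2 fold change of Eno1 lay between -0.14 and -0.09. Pkm, pyruvate kinase, had 2722, 2928 and 2900.1 CPM in the controls and 2709, 2550.1 and 2656 CPM in the RBC libraries. Here RBC replicate 1 all but met control replicate 1, and the fall was the smallest of the 15 (-0.09 ± 0.03, adjusted p = 0.038, and -0.11 ± 0.06 and 0.58 with all 6). The Pkm call was lost where RBC replicate 2 or RBC replicate 3 was also left out. The neuronal enolase Eno2 had 7.41, 7.78 and 7.23 against 6.11, 4.58 and 6.11 CPM and was not called (-0.42 ± 0.13 with all 6 and -0.39 ± 0.14 without control replicate 2, adjusted p = 0.28 and 0.07). It passed where RBC replicate 1 or RBC replicate 3 was left out together with control replicate 2.

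Gapdh stood far below its neighbours in the pathway. On the FPKM scale it had 45.99 ± 6.28 in the controls, against 702 ± 60.6 for Tpi1 before it and 1002 ± 72.4 for Pgk1 after it. Mouse Gapdh is known for its many processed pseudogenes, and how the authors counted reads that match several copies is not given in the sources used here, so its level and its change are uncertain. It had 81.5, 89.8 and 68.2 CPM in the controls and between 62.3 and 67.9 CPM in the RBC libraries, and control replicate 3 lay at the edge of that range (-0.19 ± 0.05 without control replicate 2, adjusted p = 0.012; -0.28 ± 0.10 and 0.35 with all 6). This call was lost where RBC replicate 2 was also left out. With any 1 more library left out, the log2 fold change of Gapdh lay between -0.31 and -0.055. The same limit holds for Eno1, whose retrogene Eno1b, looked at after the values were seen, averaged 674 ± 81.0 CPM over the controls and 574 ± 18.7 CPM over the RBC libraries.

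**Figure D3:**
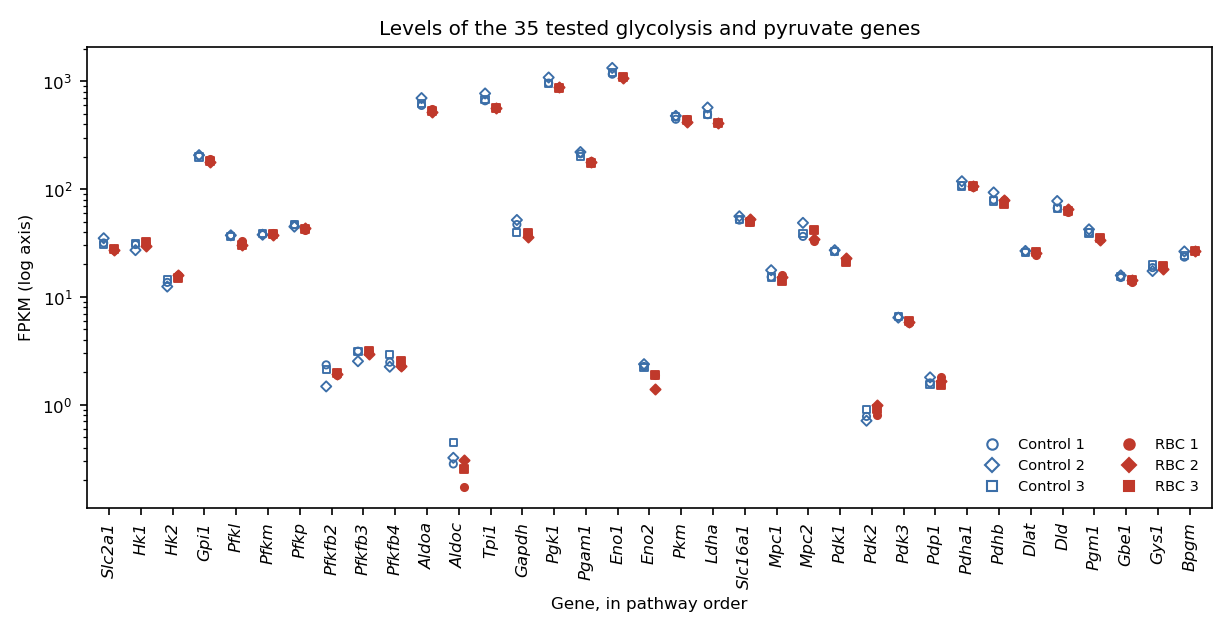
FPKM values of the 35 tested genes are plotted on a log axis in pathway order, controls as open blue and RBC libraries as filled red symbols, with 1 symbol shape per replicate number. Eno1 and Pgk1 are the highest, and Gapdh lies more than 10-fold below Tpi1 and Pgk1.

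Lactate dehydrogenase turns pyruvate into lactate and restores NAD+ for glycolysis. Ldha had 2619.7, 3055 and 2612 CPM in the controls and 2237, 2189 and 2209.7 CPM in the RBC libraries. Control replicates 1 and 3 were nearly equal, the RBC libraries likewise, and the 2 sets lay well apart. With all 6 libraries its log2 fold change was -0.32 ± 0.07 (adjusted p = 0.091). Without control replicate 2 it fell by 15.4% (-0.24 ± 0.03, adjusted p = 4e-10), the smallest p of the members. Lactate leaves with a proton through monocarboxylate transporters. Slc16a1, which encodes MCT1, had 229, 248 and 230.3 CPM in the controls and 221, 232 and 221 CPM in the RBC libraries, with overlapping groups (-0.07 ± 0.06 with all 6 and -0.03 ± 0.03 without control replicate 2). MCT4 was near silent, with 13 counts of Slc16a3 over the controls and 12 over the RBC libraries.

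**Figure D4:**
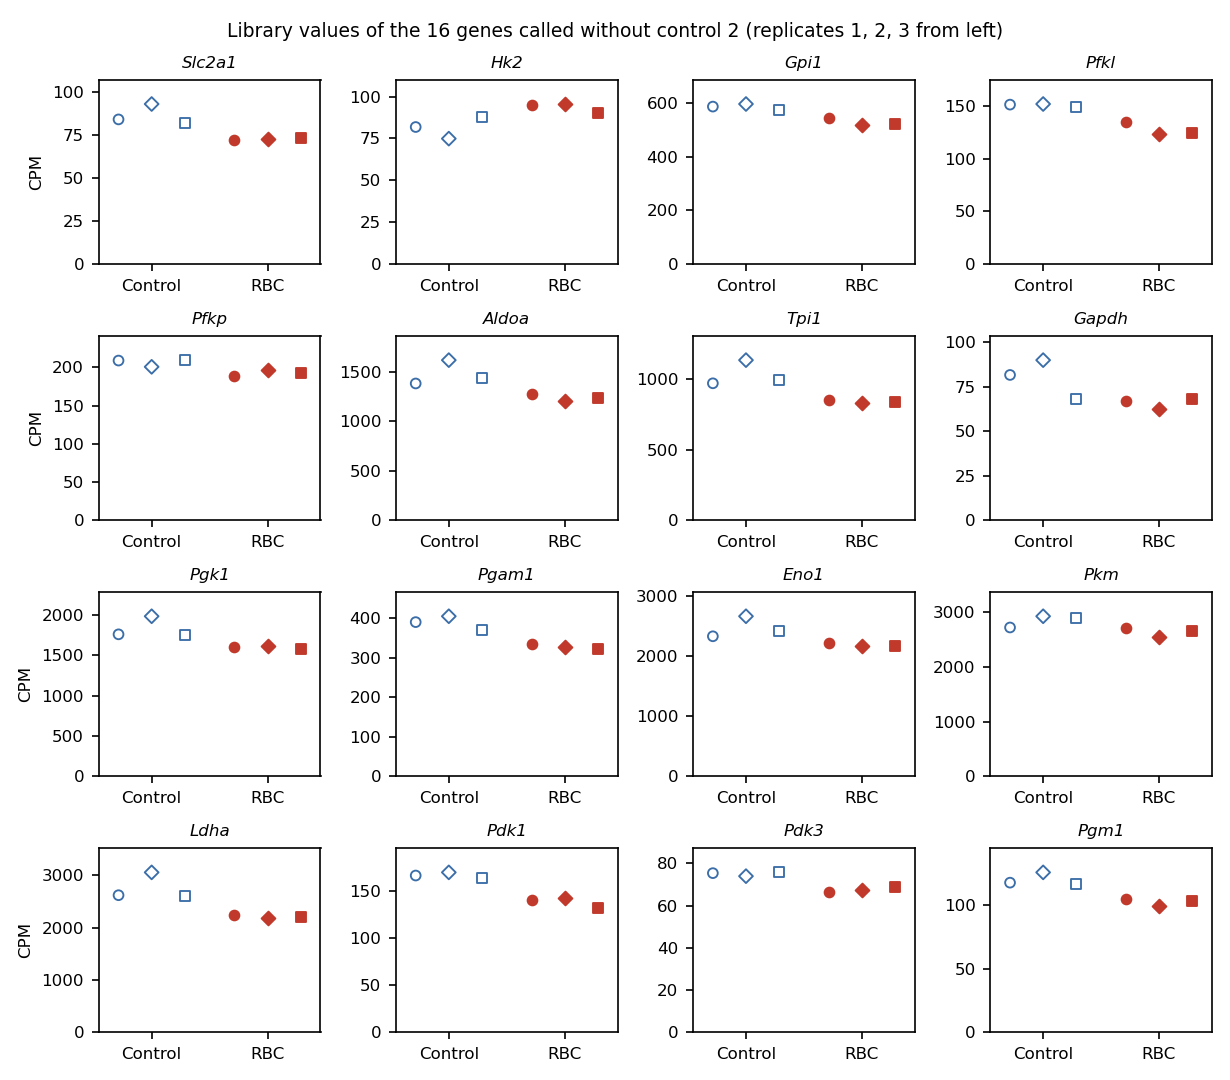
Each panel gives the CPM of 1 of the 16 genes called without control replicate 2, with control replicates 1 to 3 (open blue) and RBC replicates 1 to 3 (filled red) from left to right and axes that start at 0. In all 16 the groups do not overlap, the RBC libraries being higher for Hk2 and lower for the 15 others, and the diamond of control replicate 2 is the highest point in 13 of them.

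Pyruvate that is not reduced enters mitochondria through the carrier formed by Mpc1 and Mpc2. The higher of the pair, Mpc2, had 29.4, 39.2 and 31.00 CPM in the controls and 26.6, 27.8 and 33.9 CPM in the RBC libraries, and Mpc1 lay between 22.04 and 27.96 CPM in all 6. Neither parted the groups (-0.17 ± 0.13 for Mpc2 and -0.09 ± 0.09 for Mpc1 with all 6; -0.04 ± 0.07 and -0.02 ± 0.07 without control replicate 2). Inside, the pyruvate dehydrogenase complex turns pyruvate into acetyl-CoA, with Pdha1 and Pdhb forming its E1 enzyme, Dlat its E2 and Dld its E3. Pdha1 had 308, 338 and 306 CPM in the controls and 298, 304 and 305 CPM in the RBC libraries. Its groups did not overlap, but control replicates 1 and 3 and the RBC libraries lay within a few percent (-0.02 ± 0.03 without control replicate 2 and -0.07 ± 0.06 with all 6). Dld, with 152, 177 and 152 against 141, 149 and 143 CPM, was also lower in every RBC library than in every control, without a call (-0.07 ± 0.04, adjusted p = 0.28; -0.15 ± 0.07 and 0.55 with all 6). Pdhb and Dlat overlapped, with log2 fold changes of -0.02 ± 0.04 and -0.03 ± 0.04 without control replicate 2 and of -0.10 ± 0.08 and -0.04 ± 0.05 with all 6. Of the 6 genes of the carrier and the complex none was called in either fit, against 12 lower and 1 higher of 17 tested from glucose uptake to lactate dehydrogenase without control replicate 2, a count that leaves out the 3 PFKFB members, none of them called. The medians of the 2 sets were -0.03 and -0.19 in that fit and -0.10 and -0.24 with all 6 libraries, so that control replicate 2 moved the first by more than the second. Over all genes tested without control replicate 2, 3.77% were called lower and 4.19% higher, so no call among 6 genes is near the background. The difference between the sets was not tested.

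The complex is switched off by the pyruvate dehydrogenase kinases and on again by phosphatases. Pdk1, a kinase that HIF-1 is known to induce, had 166, 169.5 and 164 CPM in the controls and 140.0, 142 and 132 CPM in the RBC libraries. The controls agreed closely, control replicate 2 included, and Pdk1 came nearest to the threshold of all members with 6 libraries (-0.27 ± 0.05, adjusted p = 0.054). Without control replicate 2 it fell by 16.3%, the largest fall of the 15 (-0.26 ± 0.04, adjusted p = 3.8e-07). Pdk3 had 75.4, 73.9 and 75.7 against 66.6, 67.5 and 68.6 CPM and fell as well (-0.16 ± 0.05, adjusted p = 0.016, and -0.15 ± 0.05 and 0.36 with all 6). The Pdk3 call was lost where RBC replicate 1 was also left out. Pdk2 and the phosphatase Pdp1 were low, at 0.80 ± 0.10 and 1.64 ± 0.14 FPKM in the controls, and did not pass. Pdk1 made up 78.4% ± 0.70 of the FPKM of the 3 kinases in the controls and 76.5% ± 0.96 in the RBC libraries, which did not overlap (exact permutation test, two-sided, p = 0.10, adjusted p = 0.26). The shares of Pdk3 (19.2% ± 0.41 against 20.4% ± 0.82) and Pdk2 (2.35% ± 0.31 against 3.13% ± 0.29) were higher in the RBC libraries, also without overlap and with the same p-values in that test.

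The side branches gave 1 further call. Pgm1, named for phosphoglucomutase, which links glucose 6-phosphate to glycogen, had 118, 126 and 116 CPM in the controls and 105, 99.5 and 103 CPM in the RBC libraries, and fell without control replicate 2 (-0.19 ± 0.04, adjusted p = 0.00053; -0.22 ± 0.06 and 0.14 with all 6). RefSeq lists Pgm1 and Pgm2 as synonyms of each other in mouse, so which of the genes a row holds depends on the annotation used. Gbe1, the glycogen branching enzyme, had 45.2, 47.3 and 46.1 against 40.9, 42.6 and 42.8 CPM without a call (-0.13 ± 0.06 with all 6 and -0.12 ± 0.05 without control replicate 2), and glycogen synthase Gys1 overlapped. Bpgm, which makes the 2,3-bisphosphoglycerate that lowers the oxygen affinity of hemoglobin in red cells, had 36.96, 41.7 and 38.4 CPM in the controls and 42.4, 42.1 and 41.7 CPM in the RBC libraries (0.11 ± 0.06 with all libraries and 0.16 ± 0.06, adjusted p = 0.079, without control replicate 2). Erythroid transcripts moved beside it: the 10 erythroid markers summed to between 3.36 and 3.87 CPM in the controls and between 538 and 623 CPM in the RBC libraries, 5 of 5 tested were called higher, and 3 of the 10, among them Slc4a1, had 0 counts in the controls. Their part in the Bpgm values was not tested.

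Genes of neighbouring pathways were counted from 4 lists, against 7.96% of all tested genes called without control replicate 2. Of 27 tested genes of the tricarboxylic acid cycle and its shuttles none was called with all 6 libraries and 1 was lower without control replicate 2 (Me1, malic enzyme, -0.12 ± 0.04; -0.14 ± 0.06 with all 6). The median of these 27 was 0.02 in that fit and -0.04 with all 6 libraries, with 9 and 18 negative values, so that its direction turned with control replicate 2. Of 10 tested genes of the pentose phosphate pathway, 2 were lower there, the NADPH-forming enzymes G6pdx (-0.15 ± 0.04, adjusted p = 0.002; -0.16 ± 0.05 and 0.30 with all 6) and Pgd (-0.15 ± 0.03, adjusted p = 0.00018; -0.18 ± 0.05 and 0.23 with all 6). G6pdx had 167, 169 and 167 against 153, 147 and 151 CPM, so that its groups were parted with control replicate 2 as well. Among 15 tested partners and other isozymes of the members, Bsg, the chaperone that brings MCT1 to the membrane, was lower (-0.10 ± 0.03, adjusted p = 0.047; -0.16 ± 0.07 and 0.45 with all 6). Of 15 tested genes of glycogen and gluconeogenesis, Pck2, the mitochondrial carboxykinase that makes phosphoenolpyruvate, was higher (0.21 ± 0.05, adjusted p = 0.0031; 0.15 ± 0.07 and 0.55 with all 6). None of the genes of these lists was called with 6 libraries in edgeR, where 2 in the first, 3 in the second, 2 in the third and 2 in the fourth had an unadjusted p under 0.05, against 9.99% of all tested genes.

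Regulators of glycolytic genes went both ways. Hif1a, the oxygen-controlled subunit of HIF-1, averaged 188 ± 8.70 CPM over the controls and 189 ± 5.71 CPM over the RBC libraries. Of 18 tested regulators none was called with all libraries, against 1.46% of all tested genes (5 with an unadjusted p under 0.05 in edgeR, against 9.99%). Of the same 18, 2 were higher and 1 lower without control replicate 2, against 4.19% and 3.77% of all genes tested in that fit. Without control replicate 2 Myc, a transcription factor known to induce glycolytic genes, was higher (0.21 ± 0.04, adjusted p = 2.7e-05; 0.16 ± 0.06 and 0.43 with all 6), with 147, 165 and 151 CPM in the controls and 177, 166 and 174 CPM in the RBC libraries. Ppargc1a, a coactivator of mitochondrial genes, was higher as well (0.20 ± 0.06, adjusted p = 0.031; 0.37 ± 0.13 and 0.38 with all 6), and Prkaa1, a catalytic subunit of the energy sensor AMPK, was lower (-0.12 ± 0.04, adjusted p = 0.023; -0.11 ± 0.05 and 0.56 with all 6). Egln3 and Txnip, which respond to HIF-1 and to glucose, did not pass in either fit.

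The members together held 1.52%, 1.69% and 1.55% of all counts in control replicates 1 to 3 and 1.41%, 1.37% and 1.39% in RBC replicates 1 to 3. Markers of other cell types over the same libraries were as follows. The epithelial and mesothelial markers, 6 of 8 with a row, summed to between 645 and 722 CPM in the controls and between 602 and 623 CPM in the RBC libraries, with Krt5 at 0 counts in the controls. Krt8 and Krt18 were not called with all 6 libraries (-0.20 ± 0.07 and -0.48 ± 0.11) and were lower without control replicate 2 (-0.14 ± 0.03 and -0.34 ± 0.06), 2 of 4 tested. The leukocyte markers, 10 of 12 with a row, summed to between 42.2 and 48.7 CPM in the controls and 49.6 to 54.4 CPM in the RBC libraries, of which Csf1r and Cd68, neither called, supplied most. Of 6 leukocyte markers tested with all libraries, 4 were called higher: Ptprc, Cd74 and Adgre1, which had 0 counts in the controls and averaged 0.66, 1.23 and 0.88 CPM in the RBC libraries, and Lyz2, at 0.26 against 1.53 CPM. Without control replicate 2 the count was 5 of 8. The fibroblast and mural markers, 7 of 8 with a row, summed to between 442 and 492 CPM in the controls and 451 to 469 CPM in the RBC libraries. None was called with all 6 libraries, and without control replicate 2 Pdgfra was higher (0.46 ± 0.10) and Col1a2 lower (-0.10 ± 0.03). The part of these cell types in the lower glycolytic levels was not tested.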

How the data were processed

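Messenger RNA libraries of 6 samples were made with a stranded kit, per the labels' protocols. The authors deposited raw counts per gene symbol and FPKM values. The genome build was GRCm39, per the submitters' processing notes. For the aligner, counter, strand setting and annotation the sources used here give nothing. The deposited FPKM equal the counts divided by gene length and library total (largest relative departure 3.4e-08 over 10523 genes), so they are no independent check. Promoter windows came from RefSeq on GRCm38.p6, another build, and were matched by symbol.

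Groups and replicate numbers came from the sample titles. Tests of counts used edgeR 4.0.16 (R 4.3.3): filterByExpr (minimum count 10, minimum total 15), TMM scaling, glmQLFit and glmQLFTest, two-sided, Benjamini-Hochberg adjustment over all tested genes (11208 with 6 libraries, 11297 without control replicate 2), called at an adjusted p under 0.05. CPM use the total of listed counts. Values after ± are standard errors (SE) for log2 fold changes and standard deviations (SD) over libraries for levels and shares. In edgeR the SE was taken as the absolute log2 fold change over the square root of the F statistic. Isozyme shares are percent of summed FPKM, compared by exact permutation over libraries. The text gives library values for members called in either fit and the highest of each step, and names other pathway genes where called, at most 4 per list. Alternatives were RLE or no scaling, DESeq2 1.42.0, limma 3.58.1 (voom, voom with library weights, and trend on log2(FPKM + 1) or log2(FPKM + 0.1)), other filters, erythroid genes left out, a gene length offset, a replicate block and each library left out. The pipeline was tested on simulated counts. The members and lists were chosen with earlier results of these data known.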

Additional observations from a re-analysis of the deposited data

How the results depend on the processing

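The count of members called depended on control replicate 2 and on the test, the filter and the length offset. Members called lower numbered 0 with 6 libraries, 5 with DESeq2, 12 in voom with library quality weights, where control replicate 2 had a weight of 0.12 against 1.20 to 1.86 for the others, 1 without a filter on low counts (Ldha), 9 with the gene length offset, and 0 to 15 with each library left out, the 15 without control replicate 2. Background shares were 2.58% lower with weights and 1.09% with the length offset. Members called higher numbered 0, or 0 to 1 with a library left out. Leaving out 1 more library after control replicate 2, chosen after the data were seen, gave 14, 13 and 14 lower members without RBC replicates 1, 2 and 3. The share of all genes called was not worked out for those fits, so these counts cannot be read against a background. Eno2, not among the 15, was called lower without RBC replicate 1 or 3, and Hk2 higher without RBC replicate 3. These fits reuse the libraries that gave the 15, so they are no independent support. Leaving out control replicate 1 or 3 leaves 1 control and no variation among controls, so no calls are given for those fits. The median of the members stayed between -0.15 and -0.12 under the 19 alternatives.

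Over all genes, 130 were called higher and 34 lower, 164 in all. The counts were 362, 289 and 651 with library weights, 217, 122 and 339 with the length offset, 60 lower with DESeq2, and with a library left out 60 to 473 higher, 2 to 426 lower and 62 to 899 in all. Adding the replicate number as a replicate block gave 13 lower genes and 126 in all, and 0 members called. Whether the numbers pair the libraries could not be settled. Deviations from the group mean correlated at -0.01, 0.05 and 0.06 between same-numbered libraries. Control replicates 2 and 3 correlated best with the RBC library of the same number, and control replicate 1 with RBC replicate 3 (0.04). The outlying control replicate 2 also moves the group mean, and with it the deviations of the other controls, so these values cannot decide it.

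Sign changes were limited to members and shares without a call. With each library left out in turn, the log2 fold change lay between -0.008 and 0.0317 for Pfkm, -0.2123 and 0.10 for Pfkfb2, -0.0178 and 0.1298 for Pfkfb3, -0.0393 and 0.0973 for Pdp1, and -0.0315 and 0.0638 for Gys1. Library weights gave -0.0002 for Pfkfb3 and -0.0292 for Gys1. The RBC minus control difference was 0.11 percentage points for the Pfkp share and -1.23 for the Mpc2 share. With a library left out it lay between -0.46 and 0.84 for Pfkp and between -3.50 and 0.29 for Mpc2. Counting error set by depth does not cover variation between cultures, and genes near 0 counts could not be compared.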
